A study of Homo sapiens and Mus musculus with 21 samples.

Results

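The 31 genes described here encode subunits of the human proteasome and were taken as a list of names by membership in the complex; no measured value entered the rule, although the list was drawn up with earlier results of these data known. They are 14 genes of the core particle (PSMA1 to PSMA7 and PSMB1 to PSMB7), 9 of the base of the regulatory particle (PSMC1 to PSMC6, PSMD1, PSMD2 and PSMD4) and 8 of its lid (PSMD3, PSMD6, PSMD7, PSMD8, PSMD11, PSMD12, PSMD13 and PSMD14), among 20056 protein-coding genes of the reference. All 31 could be placed on the genome. The input RNA table lists 58381 genes by Ensembl identifier only, and names are paired with identifiers in the authors' translational efficiency table. Through it, 19 members had counts (9 of the core, 3 of the base and 7 of the lid), and the RNA level of the other 12 was not analysed here.

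The series asks which enzyme writes m6Am and what follows from its loss, by removing PCIF1 from HEK293T, a transformed human embryonic kidney line. The groups used here were wild-type (WT) and PCIF1 knockout (KO) HEK293T cells: 1 WT and 2 KO libraries of miCLIP, and 2 WT and 3 KO libraries each of input RNA and of ribosome-protected fragments. Single SLAM-seq libraries of each genotype at 0, 6 and 12 h of uridine chase and 2 miCLIP libraries of mouse embryonic fibroblasts complete the 21 samples. No drug or other treatment besides the uridine chase is given in the labels, nor is the number of knockout clones or how they were made. Whether replicates came from separate cultures is not in the labels, and p-values then reflect the spread of these libraries alone, possibly a technical one.

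The proteasome degrades proteins tagged with ubiquitin. Its core is a barrel of stacked rings, with PSMA subunits in the outer rings and PSMB subunits in the inner ones, where the proteolytic sites lie. The base carries a ring of ATPases that unfold substrates, and the lid removes ubiquitin chains before the substrate enters. m6Am is a doubly methylated adenosine at the first transcribed base next to the mRNA cap, and PCIF1 adds its N6-methyl group. m6A lies inside transcripts, most often in the sequence DRACH (D is A, G or T, R is A or G, H is A, C or T), and is written by a different enzyme.

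The stretches of genome around the annotated starts are shown here because the first base decides whether a transcript can carry m6Am at all. Each runs from 40 bases before to 20 bases after the start in RefSeq (GRCh38.p14), 5′ to 3′ in the direction of transcription, and the capital marks the start base. The first 6 lie at starts covered by a region of the authors' strict list of putative m6Am. Regions of that list are called m6Am regions below, and whether a given start is methylated was not tested here. For PSMA4, the second of 3 annotated starts is shown.
PSMA4 (chr15:78540404-78540464, plus strand): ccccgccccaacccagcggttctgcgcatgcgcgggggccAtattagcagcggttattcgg
PSMA5 (chr1:109426428-109426488, minus strand): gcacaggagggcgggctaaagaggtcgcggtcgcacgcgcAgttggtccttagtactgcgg
PSMB2 (chr1:35641506-35641566, minus strand): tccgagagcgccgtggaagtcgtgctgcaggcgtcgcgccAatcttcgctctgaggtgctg
PSMC4 (chr19:39971125-39971185, plus strand): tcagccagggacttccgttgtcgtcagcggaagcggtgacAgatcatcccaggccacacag
PSMD3 (chr17:39980767-39980827, plus strand): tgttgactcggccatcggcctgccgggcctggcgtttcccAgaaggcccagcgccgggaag
PSMD13 (chr11:236936-236996, plus strand): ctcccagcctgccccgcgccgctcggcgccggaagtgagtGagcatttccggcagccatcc
The next 3 are starts of lid genes without a region.
PSMD7 (chr16:74296774-74296834, plus strand): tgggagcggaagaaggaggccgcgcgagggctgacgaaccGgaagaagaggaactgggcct
PSMD11 (chr17:32444470-32444530, plus strand): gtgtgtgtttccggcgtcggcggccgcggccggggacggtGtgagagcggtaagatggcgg
PSMD12 (chr17:67366557-67366617, minus strand): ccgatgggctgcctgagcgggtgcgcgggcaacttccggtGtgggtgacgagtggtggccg

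Of these 6 starts with a region, 5 have A as the start base after C, and the 3 without one have G there. These stretches are chosen examples, and other starts differ. Covered starts of PSMA1 and PSMB5 and the first start of PSMA4 have C, and those of PSMB4 and PSMC5 have G. The start of PSMD14, a lid gene without a region, has A. Over all 26 members with a promoter entry in RefSeq (32 starts), the start base was A in 14, G in 15 and C in 3. That share of A, 43.8%, was close to the 44.4% of all 35116 annotated starts. Of the 15 member starts covered by a region, 9 (60%) began with A and 7 (46.7%) with A after C. Of the 17 not covered, 5 (29.4%) began with A and 1 (5.88%) with A after C. Over all starts the shares were 60.8% and 45.2% where a region covered them and 43.7% and 28.9% elsewhere. Covered member starts therefore had A about as often as covered starts in general. The other 6 covered starts, such as that of PSMD13 above, have another base at the annotated position, and the position at which RNA in these cells begins was not measured here.

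Most genes of the core and the base, and few of the lid, had a putative m6Am region at their start. Within 50 nt of the gene start, a region of the authors' list of 2360 was found for 18 of 31 members (58.1%, exact 95% interval 39.1 to 75.5%), beside 8.89% of all protein-coding genes. Among the 707 protein-coding genes of the authors' efficiency table, which lists genes with fragment counts, the share was 45.7%. By part of the complex the counts were 10 of 14 core genes (71.4%, 41.9 to 91.6%), 6 of 9 base genes (66.7%, 29.9 to 92.5%) and 2 of 8 lid genes (25%, 3.19 to 65.1%). The 3 intervals overlap and cover counting error only, and no difference between the parts was tested. With only the regions scored above the list's median, 8 of 14 core genes, 1 of 9 base genes and 2 of 8 lid genes had one, so that the base lay below the lid. Counting every RefSeq start of a gene, a choice made after seeing the data, added PSMA1, PSMB5 and PSMC2, so that 12 core, 7 base and 2 lid genes had one (21 in all, 67.7%), beside 10.3% of protein-coding genes and 53.2% of those in the efficiency table. The region list has no replicate, and how its score was computed is not given in the sources used here.

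**Figure D1:**
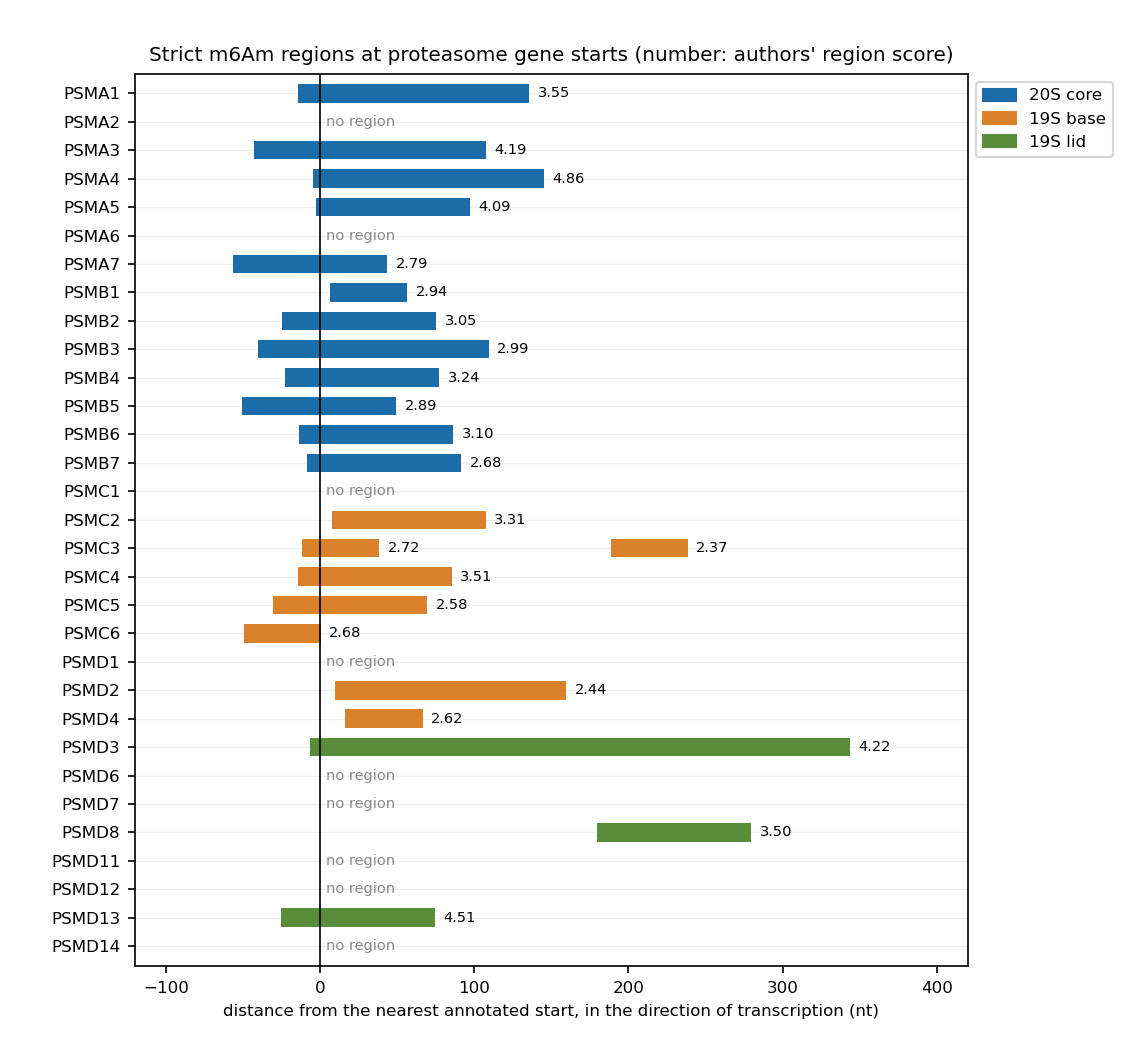
Position of each strict putative m6Am region (bar) relative to the nearest annotated start of the 31 genes, in nt in the direction of transcription. Numbers are the authors' scores, and colours mark core, base and lid. Regions of 21 genes lie within 50 nt of a start, those of PSMD8 and the second of PSMC3 lie further downstream, and 6 of 8 lid genes have none at the start.

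In the core, 12 regions scored 2.68 to 4.86 with a median of 3.08, beside a median of 2.9 and a range of 2.01 to 5.88 over all regions. The highest was that of PSMA4, a subunit of the outer ring (chr15:78540401-78540550, score 4.86, rank 30 of the list). It covers the start of PSMA4 printed above. PSMA3 (chr14:58244801-58244950, 4.19) and PSMA5 (chr1:109426351-109426450, 4.09), of the same ring, followed. Among the catalytic subunits, PSMB6, which cuts after acidic residues, had a region of score 3.1. PSMB5, the chymotrypsin-like subunit and target of bortezomib, had one of 2.89, and PSMB7, the trypsin-like subunit, one of 2.68. PSMA2 and PSMA6, also of the outer ring, had no region within 50 nt of any start.

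Base regions scored lower in this list, from 2.44 to 3.51 with a median of 2.68 over 7 genes. The highest belonged to the ATPase PSMC4 (chr19:39971151-39971250, 3.51), which covers the start shown above, and the lowest to PSMD2, a scaffold that binds ubiquitin carriers (chr3:184299251-184299400, 2.44). PSMC3 had a further region of 2.37 at 189 nt from its start. The ATPase PSMC1 and the scaffold PSMD1 had none. In the lid, both regions scored high: PSMD13, a scaffold subunit, at 4.51 (chr11:236951-237050, rank 63) and PSMD3, another, at 4.22 (chr17:39980801-39981150). The region of PSMD3 is 350 nt long, the longest of the members. PSMD6, PSMD7, PSMD11, PSMD12 and PSMD14 had none within 200 nt, and PSMD8 had one of score 3.5 at 180 nt. Of the 21 regions within 50 nt, 17 covered the nearest start, and 4 (PSMB1, PSMC2, PSMD2 and PSMD4) began 7 to 17 nt from it.

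The transcript-start classes in the authors' deposited table showed the same division between core and lid. All 9 core genes in it were classed m6Am (100%, exact interval 66.4 to 100%), against 1 of 7 lid genes (14.3%, 0.361 to 57.9%). These intervals do not overlap, but they cover counting error only, and no difference between the parts was tested. Not listed there are 5 core genes, 6 base genes and 1 lid gene. Of the 3 base genes listed, PSMC2 and PSMC5 were classed m6Am, and PSMD1 had a G start. Among lid genes PSMD3 was m6Am, PSMD8 had a C start and PSMD6, PSMD7, PSMD11, PSMD12 and PSMD14 were classed A. The letter A is a class apart from m6Am, and its methylation is not stated. Of the 19 members in the table, 12 were m6Am (63.2%, 38.4 to 83.7%), beside 54.4% of its 765 genes. All 12 had a region within 50 nt of an annotated start, and 0 of the other 7 did. Regions and classes may share their miCLIP reads, and how the class was given is not stated in the sources used here, so they are no independent evidence for each other. For PSMD6, PSMD7, PSMD11 and PSMD12 the RefSeq start base is G although the class is A. Members classed m6Am differ too: it is G in PSMB4 and at the covered start of PSMC5, and C at that of PSMB5. The middle of the authors' window lies away from the RefSeq start in each of them, so a different start may have been used. In PSMA4, classed m6Am, that middle is at the first annotated start, where the base is C.

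Promoters of the members were searched on both strands over 250 bases before to 50 bases after each start. TGACNNNGC, the core of the element bound by NFE2L1, the factor known to raise proteasome genes when proteasome activity falls, was found in 7 of 26 members (26.9%), beside 16.1% of 27305 genes. They were PSMA4 and PSMB3 of the core, PSMC4, PSMC5 and PSMD1 of the base, and PSMD3 and PSMD12 of the lid. The CCAAT box was found in 15 (57.7%, beside 39.7%), of which 7 of 10 core, 3 of 8 base and 5 of 8 lid genes. GGGCGG, the GC box, was found in 18 (69.2%, beside 48.3%). A match describes these letters only.

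Between gene start and end, most members had DRACH sites in each HEK293T miCLIP list, each site a single position with its substituted and total reads. Whether a site lies in an exon was not checked. The 3 WT sites of PSMA1, for example, lie 95225 to 99887 nt from the gene's end, on 6 to 12 reads each. On the gene's own strand (either for PSMD4, whose strand is not given in the tables), WT had 56 sites in 23 members (74.2%), KO replicate 1 had 44 in 21 (67.7%) and KO replicate 2 had 61 in 26 (83.9%). Over 16049 protein-coding genes, 48.8%, 47.7% and 49.6% had a site. RNA level and gene length, which differ between genes, were not held constant in this comparison, so it does not show that members carry more m6A. In the lid 8 of 8 genes had one in WT, 7 in KO replicate 1 and 8 in KO replicate 2. In the core the counts were 7, 9 and 13 of 14, and in the base 8, 5 and 5 of 9. The order of the 3 libraries thus differs between the parts, and genotype was not tested on these counts, which come from 1 WT library and 2 KO libraries. Per gene, PSMB5 had 6, 4 and 5 sites, PSMD7, which pairs with the lid's deubiquitinase, 5, 5 and 3, and PSMD2 4, 1 and 8. PSMC1 had 0 in all 3 lists.

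Sites of the members lay near the end of the gene more often than sites in general. Within 500 nt of the gene's end were 37.5% of the WT sites, 36.4% in KO replicate 1 and 34.4% in KO replicate 2, beside 10.4%, 10.7% and 10.9% of sites over all protein-coding genes. Gene length, which differs between genes, was not held constant. The letters GGAC were at 25%, 34.1% and 31.1% of member sites, beside 33.8%, 34.3% and 34.2%. The median number of reads at a WT site was 85.5 in the core, 19 in the base and 53 in the lid, so sites in the base rest on the fewest reads.

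Of 117 positions listed in the members, 15 were in all 3 lists, 14 in 2 lists and 88 in 1. Of the 56 WT sites, 16 were listed again in KO replicate 1 and 21 in KO replicate 2. Of those 56, 16 had 5 or more substituted reads, and 12 and 15 of these were listed again, so sites with more substituted reads were listed again more often. Over the 15 shared sites together, the substituted share was 6.42% in WT (132 of 2056 reads, exact interval 5.4 to 7.57%). It was 5.86% in KO replicate 1 (105 of 1793, 4.81 to 7.05%) and 6.75% in KO replicate 2 (178 of 2637, 5.82 to 7.78%). The WT value lies between the KO values, and the intervals overlap. These 15 sites were chosen for being listed in all 3 libraries, and a listed site has at least 2 substituted reads. A site that lost its substitution in KO could not enter, so these shares cannot show whether sites were lost.

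**Figure D2:**
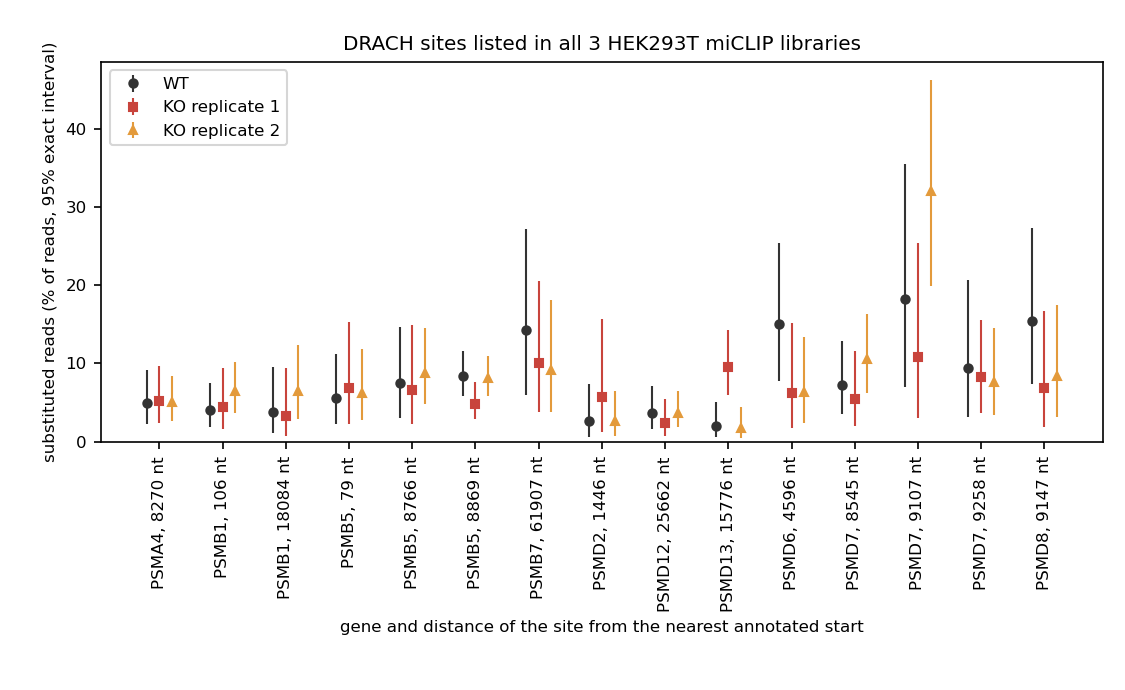
Share of reads with the substitution, in percent, at the 15 DRACH sites listed in all 3 HEK293T libraries, named by gene and distance from the nearest annotated start in nt; points are libraries and bars exact 95% intervals that cover counting error only. At most sites the 3 intervals overlap, and at the PSMD13 site KO replicate 1 (9.52%) stands above WT (1.99%) and KO replicate 2 (1.78%).

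The site with the most reads was in PSMB5 (chromosome 14, position 23026031, 180 nt from the gene's end, motif GGACA). There 33 of 391 reads (8.44%) were substituted in WT, 17 of 350 (4.86%) in KO replicate 1 and 40 of 494 (8.1%) in KO replicate 2, with overlapping intervals. PSMD7 had 3 shared sites, and at position 74305921 of chromosome 16 the shares were 18.2%, 10.8% and 32.1% over only 33, 37 and 53 reads. At a site of PSMD6 (chromosome 3, 64018898) they were 15.1%, 6.25% and 6.38%. Both KO values lie below WT there, but the interval of WT (7.77 to 25.4%) overlaps those of the KO libraries (1.73 to 15.2% and 2.38 to 13.4%). In PSMD13 (chromosome 11, 252752) 4 of 201 reads (1.99%, 0.545 to 5.02%) were substituted in WT, 20 of 210 (9.52%, 5.91 to 14.3%) in KO replicate 1 and 4 of 225 (1.78%, 0.486 to 4.49%) in KO replicate 2. The KO libraries thus differ from each other by more than counting error at this site.

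Few sites lay close to a start: 3 in WT, 4 in KO replicate 1 and 3 in KO replicate 2 within 150 nt, and 1, 2 and 1 inside a member's m6Am region. A site of PSMB1, an inner ring subunit, 106 nt from its start (chromosome 6, 170553201), was in all 3 lists at 4.02%, 4.44% and 6.43%. One of PSMB5, 79 nt from an annotated start (chromosome 14, 23034821), was at 5.6%, 6.85% and 6.25%. In PSMB4, a site 45 nt from the start and inside the m6Am region (chromosome 1, 151399618) was listed in both KO libraries, at 5 of 120 reads (4.17%) and 11 of 183 (6.01%), and not in WT. A list holds only positions that passed the authors' threshold, so a site missing from a list has no value there.

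Whole libraries set the following limits. The input libraries held 4511687 to 5960674 counts, and the fragment libraries 17665 to 124580 over the 785 genes listed in that table, with WT replicate 1 the shallowest. On the first principal component of the input libraries (48.9% of the variance) WT replicate 1 stood at 32.5 and the other 4 between -11.4 and -2.74. Of the markers used to check the cell line, IRS4, NEFM and NEFL of 5 HEK293T genes had WT DRACH sites (76 in all), against 1 site in 1 of 5 fibroblast genes and 0 in 6 blood and endothelial genes. The level of PCIF1 itself was not analysed here.

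No measured member passed the test for a difference in input level between KO and WT. edgeR's quasi-likelihood test with Benjamini-Hochberg adjustment called 0 of 19, beside 0.0342% of all 14629 genes tested, and DESeq2 also called 0 of 19. At an unadjusted p under 0.05 there were 2, PSMA4 higher (beside 3.1% of all genes) and PSMD11 lower (beside 6.19%). The median log2 fold change of KO over WT was 0.06 for the members, -0.02 for all genes and 0.04 for the genes of the efficiency table. Of the members 12 were higher and 7 lower. By part, 8 of 9 core genes were higher (median 0.07), 1 of 3 base genes (median -0.05) and 3 of 7 lid genes (median -0.00). These medians lie close to those of all genes. In bulk RNA a change in the mix of cells and a change in RNA per cell cannot be told apart. Levels scaled to the library total also cannot show a change shared by all genes.

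Levels are given in CPM, read counts scaled to a common library total after TMM normalization, for WT replicates 1 and 2 and then KO replicates 1 to 3. Per gene they are not divided by length and are not compared between genes. Of the outer ring, PSMA3 had 63.6 and 95.9 CPM in WT and 106, 94.1 and 99.4 in KO. Its WT replicate 1 stands apart, and the groups overlap (log2 change 0.33, SE 0.16, edgeR adjusted p = 0.55). PSMA4 had 115 and 123 in WT and 167, 140 and 131 in KO. All 3 KO libraries lie above both WT libraries (0.30, SE 0.12, edgeR adjusted p = 0.514). PSMA7 had 253 and 268 against 270, 252 and 284. Of the inner ring, PSMB1 had 154 and 132 against 162, 141 and 157, and PSMB2 273 and 268 against 284, 272 and 299. Both overlap between the groups. PSMB4 had 340 and 386 against 362, 364 and 418. The catalytic PSMB5 had 284 and 314 against 296, 301 and 341. PSMB6 had 172 and 189 against 169, 174 and 192. PSMB7 had 228 and 230 against 232, 219 and 246, so that KO and WT overlap in all 3 catalytic subunits.

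In the base, the ATPase PSMC2 had 83 and 77.1 CPM in WT and 105, 87.1 and 86.7 in KO, without overlap (0.21, SE 0.13, edgeR adjusted p = 0.623). PSMC5 had 208 and 206 against 206, 194 and 200. The scaffold PSMD1 had 136 and 97.7 against 106, 106 and 90. Its groups overlap, since WT replicate 2 lies among the KO values (-0.21, SE 0.15, edgeR adjusted p = 0.657). In the lid, PSMD11, a scaffold subunit that joins lid and core, had 308 and 250 in WT and 239, 209 and 219 in KO. All KO values were lower (-0.33, SE 0.11, edgeR adjusted p = 0.488), and this was the lowest fold change among the members. PSMD3 had 270 and 279 against 248, 245 and 253, and PSMD12 49.5 and 47.7 against 43, 47.5 and 41.5. Both were lower in every KO library, each by -0.14 on the log2 scale. PSMD8 had 203 and 193 against 211, 203 and 220. PSMD14, the deubiquitinase, had 59.7 and 67.1 against 74.7, 73.6 and 68.6. Both were higher without overlap. PSMD6 had 125 and 98.5 against 138, 108 and 115, and PSMD7 132 and 108 against 127, 115 and 119. Without overlap between the groups were 4 members with KO higher, beside 10.7% of all genes, and 3 with KO lower, beside 13.5%. Among the 765 genes of the efficiency table, through which members were measured, 122 were higher and 47 lower without overlap.

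The choice of WT library decided the calls. Without WT replicate 2, edgeR's quasi-likelihood test called 4 members among 1912 genes: PSMA3 (0.68, adjusted p = 0.000229), PSMA4 (0.37, 0.0278), PSMD1 (-0.40, 0.0232) and PSMD11 (-0.44, 0.000504). Without WT replicate 1 it called 0 members, among 53 genes, and PSMA3 was at 0.06 and PSMD1 at 0.05. The WT library kept in the first of these fits, replicate 1, is the one that stood apart in the input. A WT group of 1 library borrows its spread from the KO libraries in such a fit.

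**Figure D3:**
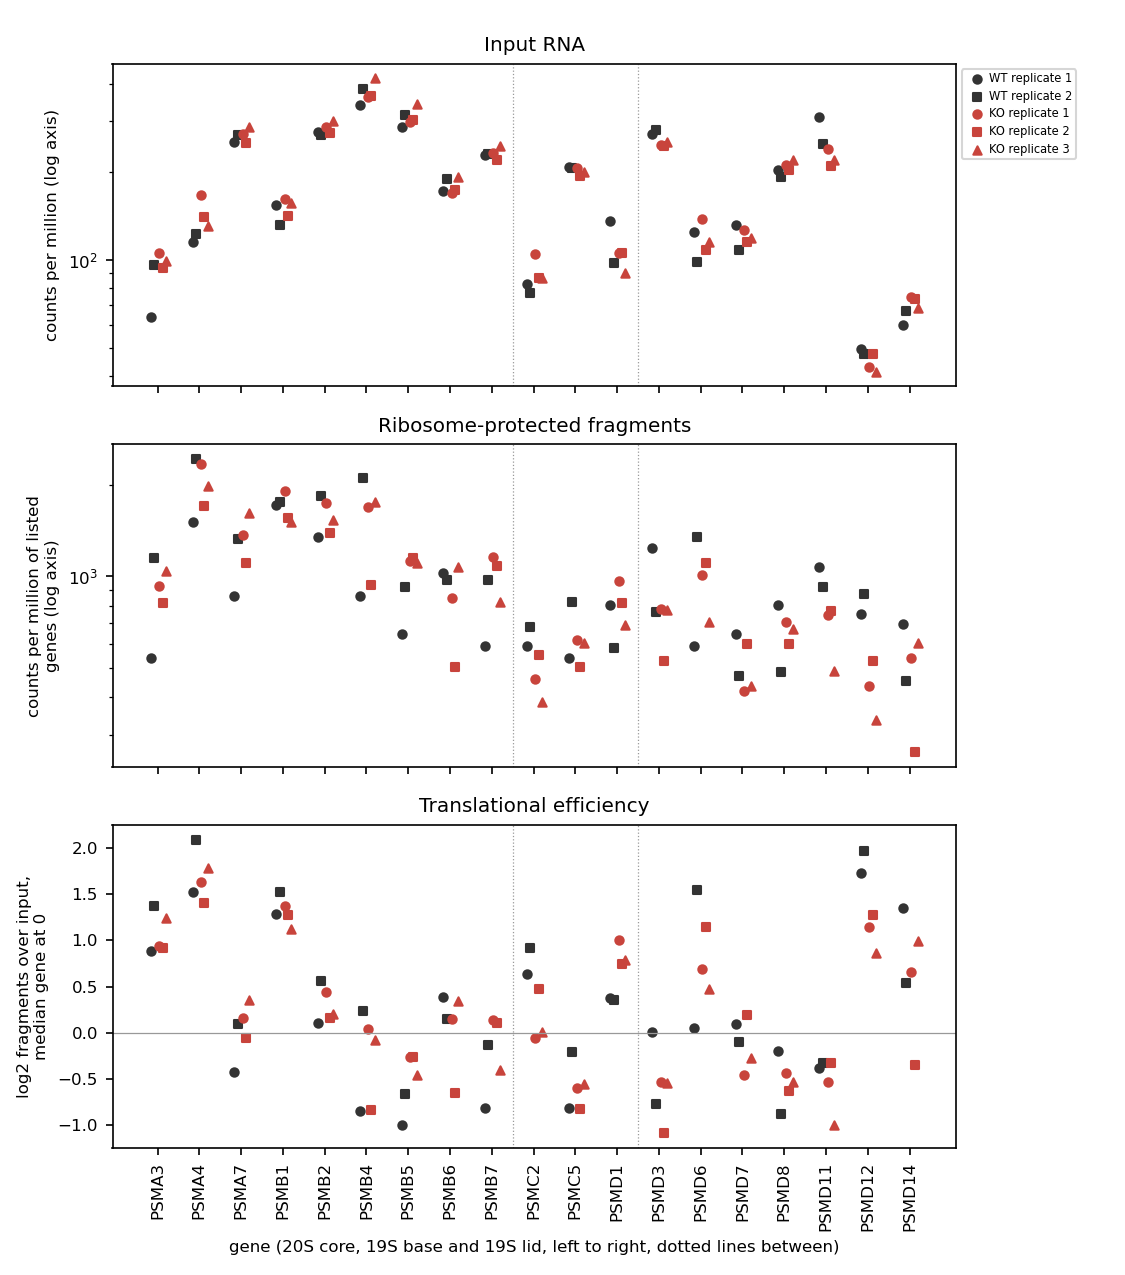
Input level (top, CPM, log axis), ribosome-protected fragments (middle, CPM of the 785 listed genes, log axis) and translational efficiency (bottom, log2 of fragments over input with the median gene of each library at 0) of the 19 measured members; each point is 1 library. KO points all lie above the WT points for 4 of 19 genes in input, 1 in fragments and 2 in efficiency, and all below them for 3, 3 and 2; PSMD12 and PSMC2 have both WT libraries above all KO libraries in the middle and bottom panels.

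Ribosome-protected fragments, the pieces of mRNA that ribosomes shield from digestion, also gave no call among the members. edgeR's quasi-likelihood test called 0 of 19, beside 0% of 785 listed genes, and DESeq2 called 0. At an unadjusted p under 0.05 was 1 member, PSMD12, lower, beside 1.78% of genes lower and 2.04% higher. The median log2 fold change was -0.09 for the members and 0.00 for all genes, with 7 higher and 12 lower. The core was at 0.01, the base at -0.31 and the lid at -0.16, with 6 of 7 lid genes lower. These medians move with single WT libraries: without WT replicate 1 the core was at -0.22, the base at -0.50 and the lid at -0.10, and without WT replicate 2 at 0.67, 0.05 and -0.52. Relative to each gene's mean log2 level over the 5 fragment libraries, the median core gene of WT replicate 1 was at -0.51 and the median lid gene at 0.45. That library is also the shallowest, with 15 reads for the median member against 57 in WT replicate 2. The part of depth in these values was not tested.

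PSMD12, a scaffold subunit of the lid, had 752 and 874 CPM of listed genes in WT and 436, 527 and 336 in KO. The groups do not overlap, and the log2 change was -0.95 (SE 0.33, edgeR adjusted p = 0.915). The change kept its sign without any 1 library, at -1.07 to -0.80. Its values rest on 14 and 54 reads in WT and 56, 22 and 20 in KO. PSMD11 had 1075 and 923 against 748, 767 and 487, lower in every KO library (-0.55). PSMC2 had 591 and 680 against 459, 551 and 387, also without overlap (-0.49). These 3 compare with 10.4% of all listed genes that were lower without overlap. PSMB5, the subunit that bortezomib binds, was the 1 member higher without overlap, beside 10.6% of genes. It had 645 and 923 against 1121, 1150 and 1109 (0.46, SE 0.30, edgeR adjusted p = 0.915). In WT replicate 1 its value rests on 12 reads, that of PSMC2 on 11 and that of PSMD11 on 20.

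In the other members the groups overlapped. In the outer ring PSMA3 had 537 and 1149 in WT and 927, 815 and 1042 in KO. PSMA4 had 1505 and 2428 against 2336, 1701 and 1983, and PSMA7 860 and 1327 against 1363, 1102 and 1614. In all 3, WT replicate 1 was the lowest library. PSMB1 had 1720 and 1748 against 1908, 1558 and 1513. PSMB2 had 1344 and 1829 against 1744, 1390 and 1530, and PSMB4 860 and 2104 against 1690, 935 and 1748. PSMB1 varied little between the WT libraries, and PSMB4 varied most of the core genes. The catalytic PSMB6 had 1021 and 971 against 849, 503 and 1076, and PSMB7 591 and 971 against 1160, 1078 and 824. In the base PSMC5 had 537 and 825 against 615, 503 and 605, and PSMD1 806 and 583 against 966, 815 and 689. The WT libraries of PSMC5 and PSMD1 thus differ in opposite directions. In the lid PSMD3 had 1236 and 761 against 779, 527 and 773. PSMD6 had 591 and 1343 against 1012, 1102 and 706. PSMD7 had 645 and 469 against 420, 599 and 437. PSMD3 and PSMD7 had more in WT replicate 1 than in WT replicate 2, and PSMD6 less. PSMD8 had 806 and 486 against 709, 599 and 672, and PSMD14 699 and 453 against 537, 264 and 605, again with WT replicate 1 the higher of the pair.

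Translational efficiency is the ratio of fragments to input, given here as log2 with the median gene of each library at 0. Values per library join fragments and input of the same replicate number, and the fitted changes did not use this match. In WT it was highest in PSMD12 (1.73 and 1.97 in the replicates) and PSMA4 (1.52 and 2.09), with means of 1.85 ± 0.17 and 1.80 ± 0.41 (SD, n = 2) that do not differ beyond this spread. PSMB1 (1.41 ± 0.16) and PSMA3 (1.13 ± 0.34) followed, and then PSMD14 at 0.95 ± 0.58. The lowest were PSMB5 (-0.83 ± 0.25), PSMD8 (-0.54 ± 0.48), PSMC5 (-0.51 ± 0.43) and PSMB7 (-0.47 ± 0.48). Medians were 0.27 in the core, 0.37 in the base and 0.00 in the lid, beside -0.03 over the authors' 765 genes. The measured members thus spanned a range from -0.83 to 1.85 in fragments per input RNA. Neighbours in that order mostly lie within their spread. The median member had only 15 fragment reads in WT replicate 1. Transcript length and the different cloning of input and fragment libraries were not corrected for, and protein synthesis was not measured.

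**Figure D4:**
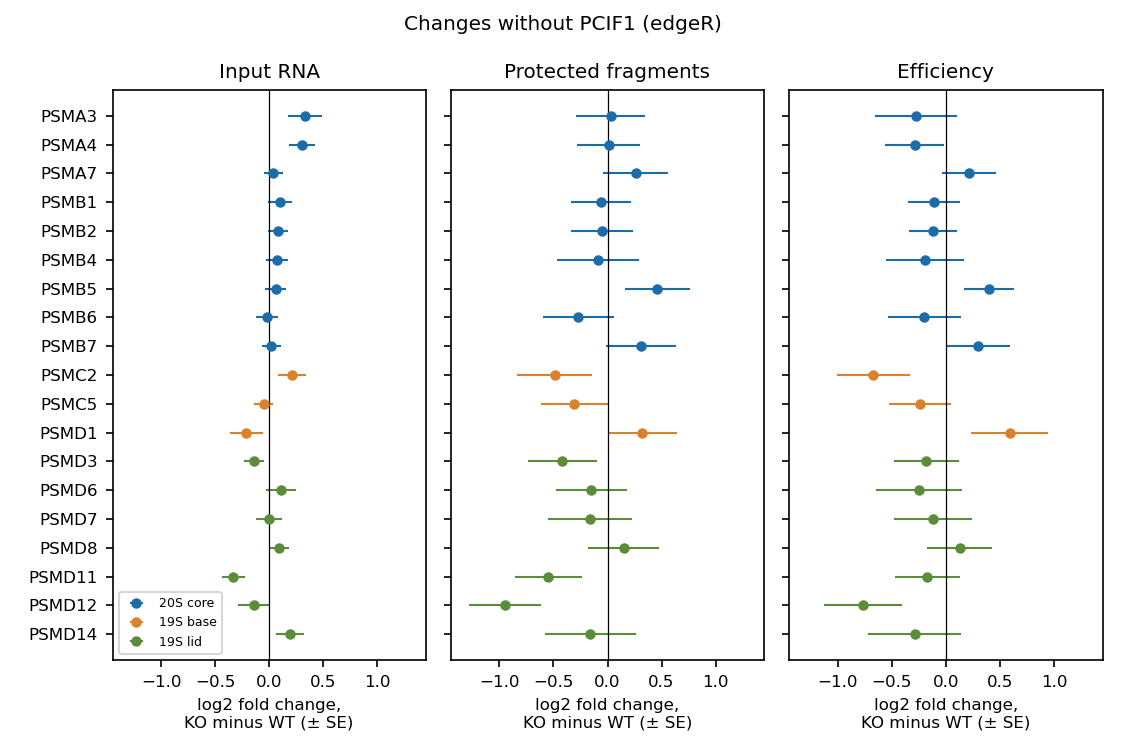
Log2 fold change of KO over WT (edgeR) for the 19 measured members in input RNA, protected fragments and efficiency, coloured by core, base and lid. Bars are standard errors derived from the F statistic. Input changes lie between -0.33 and 0.33, and efficiency changes between -0.77 (PSMD12) and 0.59 (PSMD1), with no member past the adjusted threshold.

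No member passed the test for a difference in efficiency, a genotype effect that differs between fragments and input. edgeR's quasi-likelihood test called 0 of 19, beside 0% of 785 genes, with 0 members at an unadjusted p under 0.05 beside 4.2% of genes higher and 2.93% lower, and DESeq2 called 0 members. Of the members 5 were higher and 14 lower, with a median of -0.18, beside 0.01 over all genes. The core was at -0.12, the base at -0.24 and the lid at -0.18. Without WT replicate 2 the median of the members was 0.15, that of the core 0.22 and that of the base 0.22, so that their direction rests on that library. The lid was at -0.29 without it, and between -0.30 and -0.11 without any 1 library. PSMD12 had 1.73 and 1.97 in WT and 1.15, 1.27 and 0.86 in KO, without overlap (-0.77, SE 0.36, edgeR adjusted p = 0.608). PSMC2 had 0.64 and 0.92 against -0.05, 0.47 and 0.01, without overlap (-0.67, SE 0.34, edgeR adjusted p = 0.608). These 2 compare with 11.8% of genes lower without overlap. PSMD1 had 0.38 and 0.36 against 1.0, 0.75 and 0.79 (0.59, SE 0.36, edgeR adjusted p = 0.709), and PSMB5 -1.0 and -0.66 against -0.26, -0.26 and -0.45 (0.40, SE 0.23, edgeR adjusted p = 0.697). Both were higher without overlap, beside 9.68% of genes.

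The authors' deposited table of efficiency, made from the same libraries, also had 5 members higher and 14 lower with a median of -0.16. In the authors' deposited table, of all 765 genes 51.6% were below 0 and 2 (0.261%) had an adjusted p under 0.05, with 0 members among them. PSMD12 (-0.82, SE 0.34, adjusted p = 0.441) and PSMC2 (-0.72, SE 0.35, adjusted p = 0.513) were its lowest members and PSMD1 (0.57) its highest, per the authors' deposited table. The 12 members classed m6Am had a median of -0.16 in the authors' deposited table and the 7 others one of -0.19, beside 0.03 and -0.07 over all genes of those classes. The medians of these members were thus nearly the same, over ranges of -0.72 to 0.36 and -0.82 to 0.57 in the authors' deposited table. Of the 7 others, 5 are classed A, whose methylation is not stated, and the classes largely follow core and lid. Whether m6Am goes with efficiency was not tested. The authors' SLAM-seq table, which gives a KO over WT ratio per gene for 666 genes, lists 0 members, so stability of these mRNAs was not analysed here.

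Of 43 other genes of the pathway, 13 (30.2%) had an m6Am region within 50 nt of the gene start. Among them were PSMD10, a base assembly chaperone (score 3.96), PSMG1, a core assembly chaperone (3.38), PSME1, a subunit of an activator cap (2.87), and VCP, the ATPase that extracts substrates from complexes (3.96). Of these 43 genes, 9 had input counts, and edgeR's quasi-likelihood test called 0 of them, with 5 higher and 4 lower and a median of 0.01. POMP, the maturation factor of the core, had 41.9 and 60.7 CPM in WT and 75, 66.9 and 65.7 in KO, without overlap (0.43, SE 0.17, edgeR adjusted p = 0.514). It was the 1 gene of the 9 higher without overlap, beside 10.7% of all genes. In efficiency POMP was the 1 of 8 lower without overlap (-0.62, SE 0.35), beside 11.8% of genes, and 2 of the 8 were higher. The only one of the 9 in the SLAM-seq table was DDI2, the protease that activates NFE2L1, at a KO over WT ratio of 0.897 beside a table median of 0.891, both from the authors' deposited table.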

How the data were processed

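The authors' deposited tables of input and fragments give raw counts by Ensembl gene. The submitters' processing notes name STAR, BWA 0.7.17, deepTools and bedtools and, as builds, hg38, GRCh38 and mm10; which tool made which file is not given in the sources used here. Per the labels' protocols, RNA was enriched for poly(A) on oligo(dT) beads; input and SLAM-seq libraries came from a directional kit and the others from miCLIP cloning. The authors' deposited efficiency table gives log2 fold changes, standard errors, a mean normalized signal, a test score and p-values under DESeq2's column names, per the file headers, and their SLAM-seq table a ratio. The deposited miCLIP lists give counts of substituted reads and of reads per DRACH position, each with at least 2 substituted reads, and the deposited m6Am list a score per region of unstated scale. Which genotype heads the authors' ratio was read from the values: their log2 changes and those computed here as KO over WT correlated at r = 0.994 over 765 genes.

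The members were listed by name and the lists fixed with earlier results of these data known. Every member entered every count; values per library are given for the 19 with an identifier, and other pathway genes are named where a table or a region lists them. Tests on counts used edgeR 4.0.16 (R 4.3.3; TMM, robust quasi-likelihood F test, filterByExpr on the input), two-sided, on whole tables, with Benjamini-Hochberg adjustment at 0.05. Efficiency was the interaction of genotype and library kind over 10 libraries. The SE beside an edgeR change was derived as the absolute log2 change over the square root of F. The model was tested on simulated counts. Regions and sites were placed by RefSeq coordinates of GRCh38.p14 with pandas 2.3.3. Intervals are exact (Clopper-Pearson, 95%) and cover counting error only, since reads are not independent molecules. A count of 3 equalled at most 0.665 CPM in the input and 170 CPM of the listed genes in fragments. DESeq2 1.42.0, other scalings, filters and thresholds, a replicate block and leaving out each library were alternatives. The authors' start letter was checked against RefSeq promoters: in windows of 161 bases it was the transcript's base for 388 of 388 genes on the plus strand and its complement for 79 of 79 on the minus strand, which holds no member. Windows of 160 bases hold the 5 members classed A. There the letter was the base at position 81 for only 38 of 85 genes on the plus strand and 14 of 46 on the minus strand. It was the base at position 80 or 81 for 75.3% and 63%. For genes classed m6Am, A was at position 80 or 81 in 71% and 66.4% of these windows. In windows of 161 bases it was so in 34.1% and 57.1%. The check of replicate numbers gave correlations of 0.21 and 0.01 (input) and 0.20 and 0.21 (fragments) between same-numbered WT and KO libraries. The numbers were therefore not used as pairs of WT and KO in the main tests. Efficiency per library did join input and fragments of the same number. Correlations between these were -0.06 and -0.06 in WT and 0.10, 0.12 and 0.21 in KO. No column was left unmapped, and mouse lists were not used.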

Additional observations from a re-analysis of the deposited data

How the results depend on the processing

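The count of called members stayed at 0 under every alternative for fragments and efficiency, and under all for the input except that 4 were called without WT replicate 2. Over all genes, edgeR called 5 in the input, against 15 with DESeq2's Wald test and 152 without a filter on low counts; for efficiency DESeq2 called 2. With the replicate number as a block, 3 genes were called in the input and 6 in the fragments, the input medians of members and core were 0.00 and 0.00, and the fragment median of the lid was -0.39. The block changed no call of a member. Leaving out 1 library at a time gave 2 to 1912 called genes and 0 to 4 called members in the input, 0 to 3 genes in the fragments and 0 to 14 in efficiency. Medians then ran from 0.02 to 0.09 (members), 0.01 to 0.12 (core), -0.06 to 0.05 (base) and -0.09 to 0.11 (lid) in the input. In the fragments they ran from -0.22 to 0.05, -0.22 to 0.67, -0.50 to 0.05 and -0.52 to -0.10, and in efficiency from -0.23 to 0.15, -0.23 to 0.22, -0.42 to 0.22 and -0.30 to -0.11. The cause was not tested.

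Within 20 nt in place of 50 nt the same number of members, 18, had a region, and within 200 nt 20 did. With the upper part of the scores only, above the median, 11 members did: 8 core genes, 1 base gene and 2 lid genes, so that the base fell below the lid. On either strand, DRACH sites numbered 67, 61 and 76 in WT, KO replicate 1 and KO replicate 2. With at least 5 substituted reads 17, 18 and 30 were left, and with at least 10 only 4, 2 and 10. Depth was not varied.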
